A study of Mus musculus with 12 samples.

Results

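The transcripts of the mouse mitochondrial genome were followed in 12 hearts. All 37 rows whose symbol begins with mt- were taken, which are 13 messenger RNA (mRNA), 2 ribosomal RNA (rRNA) and 22 transfer RNA (tRNA) genes. Beside them stand 6 gene models on chromosome 1 that are copies of mitochondrial genes, which makes 43 members of the 31722 symbols in the table. The hearts came from C57BL/6J mice, 6 treated with carbon tetrachloride (CCL4 in the labels, CCl4 here) and 6 in the Control group. Carbon tetrachloride injures the liver and served to model cirrhosis, and the study asks how that condition bears on the heart. The labels give no sex, age, dose, vehicle, treatment time or part of the heart, and 1 library was made per mouse. Values are RPKM, reads scaled to the length of the gene and the size of the library, so levels can be set side by side per length.

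The mitochondrial genome is a small circle that keeps the genes for core subunits of the respiratory chain and ATP synthase, together with the rRNAs and tRNAs of the organelle's own ribosome. Both strands are copied into long precursors by a single-subunit RNA polymerase, and tRNAs that punctuate the precursors are cut out, which frees the mRNAs and rRNAs between them. All other proteins of the organelle come from nuclear genes. Heart muscle is dense in mitochondria, and these transcripts make up a large part of its RNA. Pieces of the mitochondrial genome have also been inserted into nuclear chromosomes, where they can compete for sequencing reads.

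The 6 copies lie on the minus strand of chromosome 1 of the GRCm38 build, between bases 24611535 and 24616197, a stretch of 4663 bases. They follow bases 6381 to 11042 of the mitochondrial genome, a stretch of 4662 bases from within mt-Co1 to within mt-Nd4. Gene against gene, 4 of the 6 copies carried no mismatch: Gm28661 to mt-Co2, Gm10925 to mt-Atp6, Gm28437 to mt-Co3 and Gm28439 to mt-Nd4. Gm28438 had 1 mismatch to mt-Nd3, T3C, and Gm29216 had 6 mismatches to mt-Co1, which are T1056A, C1057T, A1059G, A1060G, C1062A and A1066T. In these substitutions the mitochondrial base stands first and positions count from 1 at the first base of the mitochondrial gene. The sequences below, from the GENCODE release M21 transcripts of the GRCm38 build, show how alike a gene and its copy are. Each runs 5′ to 3′ along its own gene, and capitals mark the bases that differ within a pair. The pair mt-Co2 and Gm28661 and the pair mt-Nd3 and Gm28438 are shown from their first base, on the plus strand of the mitochondrial genome and the minus strand of chromosome 1. The stretch of mt-Co1 starts at base 1054 of the gene, where Gm29216 begins.
mt-Co2: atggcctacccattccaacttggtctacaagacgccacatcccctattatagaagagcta
Gm28661: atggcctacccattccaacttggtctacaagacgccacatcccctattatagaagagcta
mt-Nd3: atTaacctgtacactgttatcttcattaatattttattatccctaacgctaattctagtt
Gm28438: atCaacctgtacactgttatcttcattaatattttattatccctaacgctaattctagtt
mt-Co1: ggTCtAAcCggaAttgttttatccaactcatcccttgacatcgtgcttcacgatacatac
Gm29216: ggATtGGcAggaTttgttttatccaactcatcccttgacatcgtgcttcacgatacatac

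The tRNA genes that the results turn on are given whole, from the same source, with the anticodon in capitals. mt-Tl2, which reads leucine codons, is on the plus strand (M, 11671 to 11741), while mt-Tp for proline (15356 to 15422), mt-Te for glutamate (14071 to 14139) and mt-Ty for tyrosine (5260 to 5326) are on the minus strand. mt-Tl2 and mt-Tp had the smallest p-values among tRNAs that were higher in CCl4 hearts, and mt-Te and mt-Ty had the highest levels of all tRNA genes.
mt-Tl2: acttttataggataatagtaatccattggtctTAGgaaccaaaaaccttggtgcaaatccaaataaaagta
mt-Tp: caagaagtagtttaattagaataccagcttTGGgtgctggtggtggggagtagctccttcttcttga
mt-Te: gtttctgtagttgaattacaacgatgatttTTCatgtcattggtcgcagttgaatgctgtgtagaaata
mt-Ty: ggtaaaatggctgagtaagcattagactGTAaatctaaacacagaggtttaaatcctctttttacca

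The libraries were deep, with 39677000 to 63407300 relative read steps in CCl4 hearts and 26352300 to 57821600 in Control hearts. Ventricular cardiomyocyte markers (8 genes, among them Myh6 and Myl2) summed to 19376 to 29590 RPKM in CCl4 hearts and 27799 to 34850 RPKM in Control hearts. Of these 8, 7 had a log2 fold change below 0 and 1 above (median −0.18). At an unadjusted p under 0.05, 2 were lower, beside 8.58% of all genes, and 0 when adjusted (limma). The 2 became 3 with TPM scaling, beside 10.4% of all genes, and 0 with median-of-ratios or quantile scaling, beside 5.6% and 5.84%. Atrial markers (6 genes) ranged widely within both groups, from 838 to 11753 RPKM in CCl4 hearts and from 608 to 15085 RPKM in Control hearts. Of 5 hepatocyte markers, Alb, Apoa1, Ttr and Serpina1a were below 0.5 RPKM in all 12 hearts, as were Myh4, Myh2, Myh1 and Actn3 of 6 skeletal muscle markers. The summed endothelial markers (5 genes) were 81.3 to 126 RPKM in CCl4 hearts and 128 to 158 RPKM in Control hearts, and the groups did not overlap. All 5 were lower at an unadjusted p under 0.05 in every setting run, beside 8.58% of all genes in the main fit. None passed when adjusted in the main fit (limma). Fibroblast markers (5 genes) summed to 73.8 to 339 RPKM in CCl4 hearts and 61.1 to 172 RPKM in Control hearts. Red cell markers (5 genes, 4 of them globin genes) summed to 157 to 244 RPKM in CCl4 hearts and 116 to 235 RPKM in Control hearts. All 5 had a log2 fold change above 0 with an unadjusted p under 0.05 (median 0.42), beside 1.6% of all genes, though none passed when adjusted (limma). Those 5 became 2 with TPM scaling or with the replicate number as a block, and 1 without CCl4 replicate 2 or Control replicate 2. Leukocyte markers (6 genes) summed to 3.52 to 24.3 RPKM in CCl4 hearts and 4.99 to 5.54 RPKM in Control hearts, with the 3 tested above 0 and Cd3e, Cd79a and S100a8 below 0.5 RPKM in all hearts. Brown adipocyte markers (5 genes) summed to 605 to 1396 RPKM in CCl4 hearts and 1082 to 1354 RPKM in Control hearts, most of it from Cox7a1, a subunit gene that heart muscle also expresses, with 1 of 3 tested above 0. White adipocyte markers (5 genes) summed to 0.712 to 31.6 RPKM in CCl4 hearts and 2.06 to 27.5 RPKM in Control hearts. The part of these cell types in the values below was not tested.

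Transcripts of the mitochondrial genome dominated the table. Ordered by mean RPKM over all 12 hearts, the first 13 rows of the whole table were members, led by Gm10925 with 87615 RPKM and Gm28661 with 65148 RPKM. Next came mt-Nd4l with 39690 RPKM, mt-Cytb with 35384 RPKM, mt-Nd1 with 32169 RPKM and mt-Nd6 with 29330 RPKM. The next members were Gm28437, Gm29216, mt-Nd4, mt-Co1, mt-Te, mt-Nd5 and mt-Ty, at 26617, 26387, 23804, 22245, 21653, 20306 and 18765 RPKM. The first 2 places thus belong to nuclear gene models whose sequence is that of mt-Atp6 and mt-Co2, the subunit a gene of ATP synthase and a core subunit gene of cytochrome c oxidase.

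**Figure D1:**
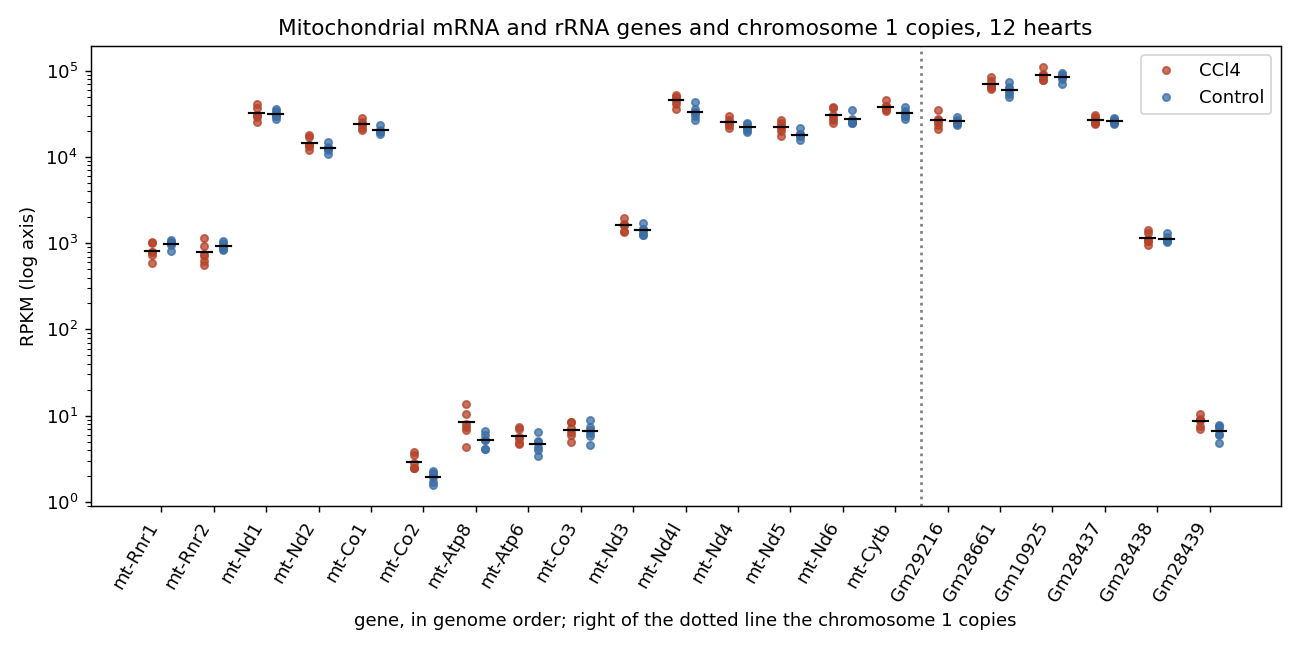
RPKM on a log axis (y) for the mitochondrial rRNA and mRNA genes in genome order and, right of the dotted line, the 6 chromosome 1 copies (x). Points are hearts (6 CCl4, left, and 6 Control, right, in each pair) and bars are group means; mt-Co2, mt-Atp8, mt-Atp6 and mt-Co3 stood below 14 RPKM while the copies Gm28661, Gm10925 and Gm28437 stood at 24060 RPKM or more.

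In the middle of the genome the level was listed under the copy and hardly under the mitochondrial gene. mt-Co2 averaged 2.92 ± 0.569 RPKM in CCl4 hearts and 1.96 ± 0.281 RPKM in Control hearts (SD, n = 6 each). Its copy Gm28661 averaged 69802 ± 8766 RPKM in CCl4 hearts and 60493 ± 8890 RPKM in Control hearts. Of the reads of that pair, 99.995% to 99.997% were listed under the copy. The same held for mt-Atp6, where Gm10925 had 99.992% to 99.996% of the pair's reads, and for mt-Co3, a further core subunit gene of cytochrome c oxidase, where Gm28437 had 99.97% to 99.98%. mt-Nd3, a complex I subunit gene, was divided, with 39.0% to 46.3% under Gm28438. mt-Co1, the catalytic subunit gene of cytochrome c oxidase, shared its last 492 bases with Gm29216, which had 22.003% to 30.49% of the pair's reads. At the other end, Gm28439 had 0.0159% to 0.0238% of the reads of its pair with mt-Nd4. Gm10222, a copy of mt-Nd4l without mismatch that lies in the same stretch and is not among the 6, had 0.00432% to 0.0108% of its pair. Of all reads of mitochondrial genes and copies, the 6 copies had 35.6% to 39.5% in CCl4 hearts and 37.8% to 40.9% in Control hearts, which overlapped.

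**Figure D2:**
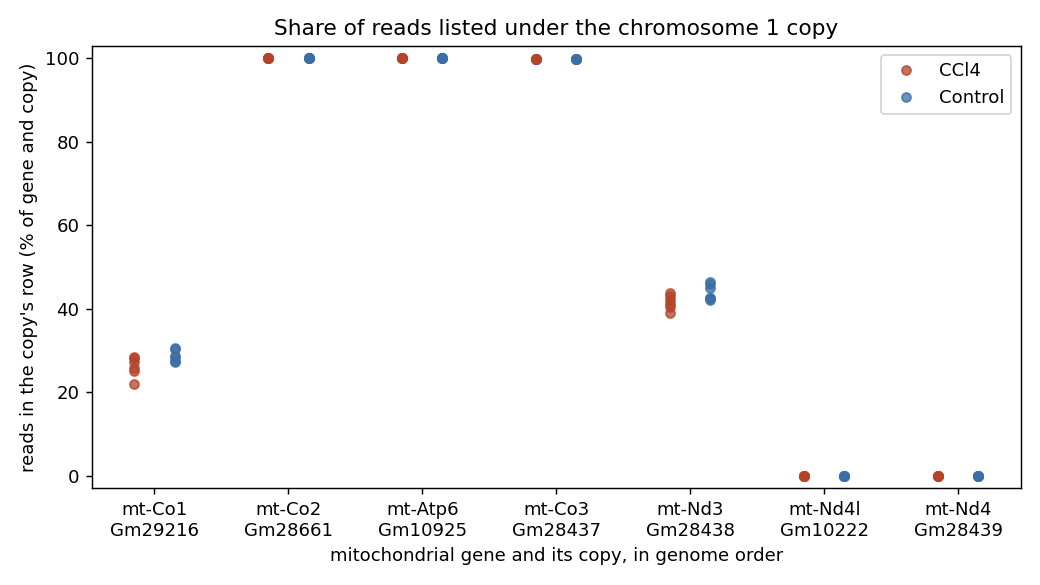
Percent of the reads of a gene and its copy that are listed under the copy (y) for 7 pairs in genome order (x), 1 point per heart, CCl4 left and Control right. The share is near 100% for mt-Co2, mt-Atp6 and mt-Co3, lies between 39.0% and 46.3% for mt-Nd3 and between 22.003% and 30.49% for mt-Co1, and is near 0% for mt-Nd4l and mt-Nd4.

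Of the 5 tRNA genes within the stretch, mt-Tr averaged 391 RPKM, mt-Tg 287 RPKM and mt-Ts1 22.4 RPKM over all hearts, and the other two were near 0. mt-Tk (lysine) was listed at 0 in 4 of the 6 CCl4 hearts and in all 6 Control hearts, and mt-Td (aspartate) stayed at or below 0.72 RPKM in CCl4 hearts and 0.633 RPKM in Control hearts. Both fell outside the expression filter. With Gm10222 counted in, there were 6 gaps between neighbouring copies on chromosome 1. In 5 of them the length was that of the matching gap of the mitochondrial genome (140, 233, 2, 69 and −4 bases, the last an overlap). The other had 74 against 73 bases, across mt-Tr. Of the mitochondrial genes, 11 lay wholly within the copied stretch, 2 partly and 24 outside it. A further 10 nuclear gene models resembled a mitochondrial gene over at least 100 bases at 90% identity or more. They held 0.0789% to 0.174% of the reads of a library, and the highest of them, Gm13341 on chromosome 2, averaged 945 RPKM. Where a gene and its copy have the same sequence, reads cannot tell them apart, and the sum of a pair is the firmer value. It covers counted reads only, and how reads matching both places were handled is not given in the sources used here. Differences in the small remainder of mt-Co2, mt-Atp6 or mt-Co3 rest on few reads. So do those of mt-Atp8, which lies within the stretch at a mean of 6.84 RPKM and has no copy model to sum with.

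Mitochondrial genes and copies together took a larger mean share of the library in CCl4 hearts, with overlap between the groups. Against the library total that the RPKM scaling implies, the share was 33.4% at the lowest, 37.1% at the median and 45.7% at the highest in CCl4 hearts. In Control hearts it was 31.1%, 33.7% and 39.7%. The means were 38.4% ± 4.71 in CCl4 hearts and 34.1% ± 3.05 in Control hearts (SD, n = 6 each), a difference of 4.34 percentage points with a standard error of 2.29. CCl4 replicates 1 and 2, at 42.3% and 45.7%, were the 2 hearts above every Control heart. Without these 2 the difference was 1.56 percentage points. Symbols matched to an exon length summed to more than the implied library total in every library, so these shares run high. Of the reads of matched symbols, the share was 31.6% to 43.8% in CCl4 hearts and 29.5% to 37.9% in Control hearts. The means of that share differed by 4.21 percentage points. The shares of single complexes below use the implied library total. In bulk tissue, more transcripts per cell and a larger part of the RNA coming from mitochondria-rich cells cannot be told apart. The complex I genes with copies took 12.4% to 17.96% of reads in CCl4 hearts and 11.6% to 15.6% in Control hearts. Cytochrome c oxidase genes with copies took 10.5% to 14.2% in CCl4 hearts and 9.90% to 12.4% in Control hearts. For mt-Cytb, the only mitochondrial subunit gene of complex III, the share was 3.96% to 5.30% in CCl4 hearts and 3.18% to 4.39% in Control hearts. For ATP synthase genes with their copy it was 5.34% to 7.57% in CCl4 hearts and 4.83% to 6.45% in Control hearts. All 4 groups of subunits overlapped between CCl4 and Control hearts.

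**Figure D3:**
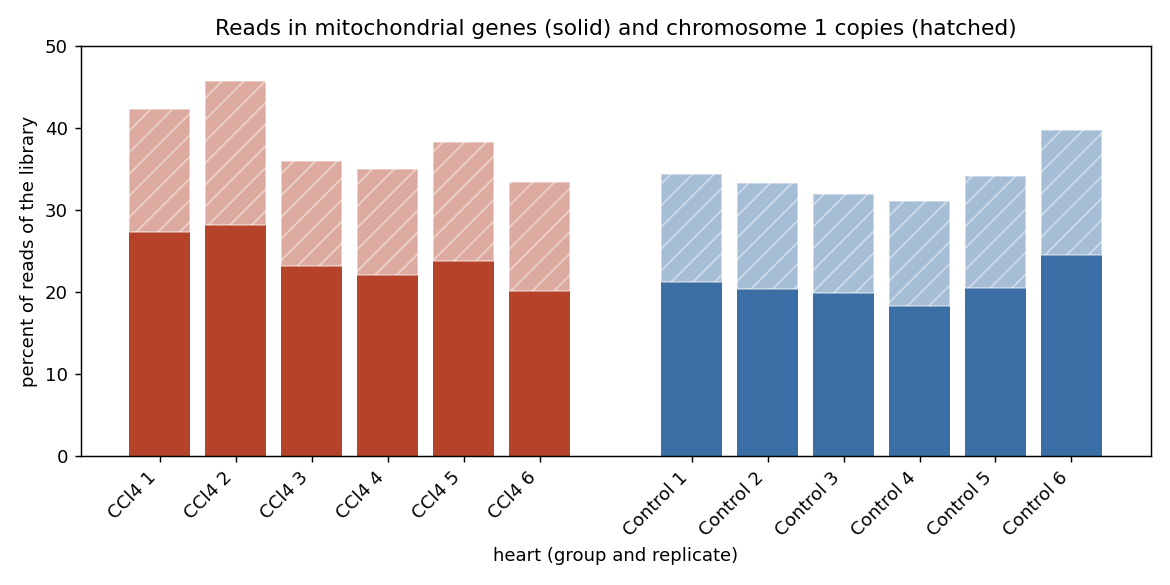
Percent of the reads of each library (y) in mitochondrial genes (solid) and in the 6 chromosome 1 copies (hatched, stacked on top) for the 12 hearts (x), CCl4 left and Control right. The library total is the one that the RPKM scaling implies. The sums run from 33.4% to 45.7% in CCl4 hearts and from 31.1% to 39.7% in Control hearts.

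Each gene was then compared between the groups. Of the 43 members, 41 had at least 0.5 RPKM in at least 6 libraries and entered the limma fit of log2(RPKM + 1) over 14087 genes. None of them passed an adjusted p under 0.05, and neither did any other gene, so that 0% of all genes were called in either direction. The smallest adjusted p was 0.229 among members and 0.0731 over all genes (limma, Benjamini-Hochberg). At an unadjusted p under 0.05, 12 of the 41 members were higher in CCl4 hearts, which is 29.3%, while 1.6% of all genes were. In the other direction 1 member was lower, while 8.58% of all genes were. The scaling of the libraries moved this background. With median-of-ratios scaling 8 members were higher (19.5%) beside 5.49% of all genes, and 5.6% of all genes were lower. With quantile scaling 10 members were higher (24.4%) beside 5.44% of all genes, and 5.84% of all genes were lower. With mitochondrial reads left out of the scaling 13 members were higher (31.7%) beside 5.01% of all genes, and 3.77% of all genes were lower. The log2 fold change of CCl4 minus Control was above 0 for 34 members and below 0 for 7, whereas it was above 0 for 34.3% of all genes and below 0 for 65.7%. The median was 0.19 over the members and −0.05 over all genes. It was 0.26 over members and −0.0052 over all genes under median-of-ratios, 0.11 and −0.00626 under quantile normalization, 0.29 and 0.0216 with mitochondrial reads left out, and 0.11 and −0.10 with TPM scaling. Median-of-ratios and quantile scaling bring the middle of all genes near 0 by construction. Their medians therefore cannot decide what the tilt of all genes below 0 rests on, and this was not tested. The split of the members was 26 above and 15 below 0 with TPM scaling and 25 above and 16 below without CCl4 replicate 2. Without Control replicate 6, 19 members (46.3%) were higher at an unadjusted p under 0.05, beside 1.12% of all genes. Without CCl4 replicate 1, 4 members (9.76%) were lower, beside 8.58% of all genes. Members share precursor transcripts and libraries and are not independent of each other. P-values here measure the spread between these 12 mice.

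**Figure D4:**
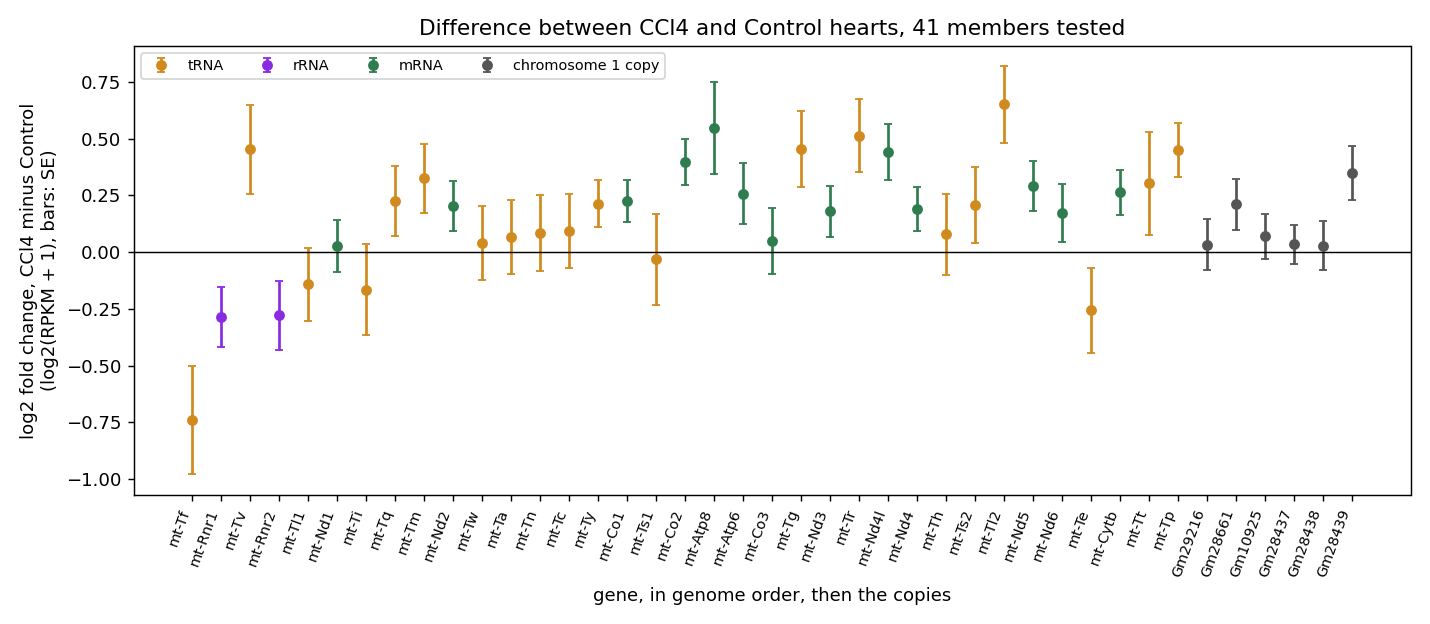
Log2 fold change (CCl4 minus Control, from log2(RPKM + 1); y, bars are standard errors) for the 41 members tested, mitochondrial genes in genome order and then the copies (x). All 13 mRNA genes lie above 0 (mt-Nd1 and mt-Co3 lay below 0 with TPM scaling, and mt-Nd1 with quantile scaling), both rRNA genes lie below 0, and the tRNA genes run from −0.74 (mt-Tf) to 0.65 (mt-Tl2).

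All 13 mRNA genes had a log2 fold change above 0, except that mt-Nd1 and mt-Co3 were below 0 with TPM scaling (−0.0495 and −0.0175) and mt-Nd1 with quantile scaling (−0.13). The median of these rows, without copies added, was 0.22, or 0.11 with quantile scaling. An unadjusted p under 0.05 was found for 6, beside 1.6% of all genes higher. It was found for 3 with median-of-ratios or quantile scaling, beside 5.49% and 5.44%, and for 10 without Control replicate 6, beside 1.12%. Among the 6 were mt-Co2 and mt-Atp8, rows of the copied stretch that averaged 2.44 and 6.84 RPKM over all hearts. Among the 7 complex I subunit genes mt-Nd4l differed most. Its RPKM was 36229 at the lowest, 46776 at the median and 53242 at the highest in CCl4 hearts, against 27021, 32778 and 43125 in Control hearts. The groups overlapped, although all 6 CCl4 hearts were above the Control median. The log2 fold change was 0.44 ± 0.12 (SE; adjusted p 0.264, limma; exact permutation p 0.0108, two-sided). mt-Nd5 had 17702, 22530 and 26763 RPKM at the lowest, median and highest in CCl4 hearts, against 15805, 18034 and 21681 RPKM in Control hearts, which overlapped. Its log2 fold change was 0.29 ± 0.11 (SE; adjusted p 0.376, limma). mt-Nd2 had 0.20, mt-Nd4 0.19, mt-Nd3 0.18, mt-Nd6 0.17 and mt-Nd1 0.03 on the log2 scale, and their adjusted p-values lay above 0.5 (limma). Summed with Gm28438, mt-Nd3 had a log2 fold change of 0.11. That sum was 2305 to 3395 RPKM in CCl4 hearts and 2295 to 3029 RPKM in Control hearts, which overlapped. mt-Nd6 is the only mRNA gene read from the other strand. It averaged 31155 ± 5590 RPKM in CCl4 hearts and 27504 ± 4084 RPKM in Control hearts (SD, n = 6 each), with Control replicate 6 at 35476 RPKM apart from the other 5 Control hearts.

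The complex I genes mt-Nd4l and mt-Nd4 overlap and are joined in a single transcript, and their RPKM ratio was compared within hearts. The ratio was 1.63 to 2.06 in CCl4 hearts and 1.34 to 1.74 in Control hearts, and 3 CCl4 hearts lay above all Control hearts. The ratio of mt-Nd1 to mt-Nd2, genes that follow each other after the rRNA genes, was 2.08 to 2.42 in CCl4 hearts and 2.31 to 2.76 in Control hearts. Of the CCl4 hearts 5 lay below all Control hearts. The ratio of mt-Nd6 to mt-Nd5 was 1.16 to 1.56 in CCl4 hearts and 1.34 to 1.67 in Control hearts, with 1 CCl4 heart below all Control hearts. That of mt-Cytb to mt-Co1 was 1.49 to 1.69 in CCl4 hearts and 1.48 to 1.66 in Control hearts, with 3 CCl4 hearts above all Control hearts. In these ratios the scaling of the library drops out.

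For complex III, mt-Cytb encodes cytochrome b. It was 34630 at the lowest, 37704 at the median and 46359 RPKM at the highest in CCl4 hearts, against 27824, 31501 and 38356 RPKM in Control hearts. All 6 CCl4 hearts were above the Control median, and the ranges overlapped. The log2 fold change was 0.26 ± 0.10 (SE; adjusted p 0.373, limma).

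For cytochrome c oxidase, mt-Co1 had 20630 at the lowest, 23788 at the median and 28232 RPKM at the highest in CCl4 hearts, against 18775, 20012 and 23501 RPKM in Control hearts. The ranges overlapped and the log2 fold change was 0.22 ± 0.09 (SE; adjusted p 0.415, limma). Summed with the partial copy Gm29216, the level was 28729 to 39464 RPKM in CCl4 hearts and 27009 to 32823 RPKM in Control hearts, with a log2 fold change of 0.17. In the row of mt-Co2 itself, CCl4 hearts had 2.45 RPKM at the lowest, 2.66 at the median and 3.79 at the highest, against 1.56, 2.03 and 2.27 RPKM in Control hearts. The 2 groups did not overlap, as for 0.0355% of all genes in this direction, and the log2 fold change was 0.40 ± 0.10 (SE; adjusted p 0.229, limma; exact permutation p 0.00216, two-sided, the smallest that 6 against 6 hearts allow). This row holds a few thousandths of a percent of the pair's reads. The sum of mt-Co2 and Gm28661 ranged from 60794 to 83769 RPKM in CCl4 hearts and from 49284 to 74284 RPKM in Control hearts, which overlapped, with a log2 fold change of 0.21. For mt-Co3 and Gm28437 the sum averaged 26925 ± 2598 RPKM in CCl4 hearts and 26254 ± 1811 RPKM in Control hearts (SD, n = 6 each), a log2 fold change of 0.03.

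For ATP synthase, mt-Atp8 had 4.30 RPKM at the lowest, 7.72 at the median and 13.7 at the highest in CCl4 hearts, against 4.07, 5.25 and 6.70 RPKM in Control hearts. The groups overlapped and the log2 fold change was 0.55 ± 0.20 (SE; adjusted p 0.373, limma). mt-Atp8 lies within the copied stretch, and none of the 6 copies is a model of it. No pair sum could be formed, so its fold change is that of a row averaging 6.84 RPKM over all hearts. The sum of mt-Atp6 and Gm10925 was 78428 to 111174 RPKM in CCl4 hearts and 70956 to 94692 RPKM in Control hearts, with a log2 fold change of 0.07. Of the copies as rows, Gm28439 had a log2 fold change of 0.35 ± 0.12 (SE; adjusted p 0.341, limma) at 8.67 RPKM in CCl4 hearts and 6.61 RPKM in Control hearts. Gm28661 had 0.21, Gm10925 0.07 and the other 3 about 0.03. Gm28438, Gm28437, Gm10925 and Gm29216 were below 0 with TPM scaling, and Gm28437 and Gm29216 also with quantile scaling.

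Most mRNA genes had the same hearts at the ends of their group. CCl4 replicate 2 was the highest of its group for 7 of the 13 mRNA genes and CCl4 replicate 1 for the other 6, while CCl4 replicate 6 was the lowest for 10. In the Control group, replicate 6 was the highest for 11 mRNA genes and replicate 4 the lowest for 10. The highest Control heart was replicate 4 for mt-Co2 and replicate 2 for mt-Co3, both rows of the copied stretch. CCl4 replicate 6 exceeded all Control hearts for 1 mRNA gene, mt-Co2, and CCl4 replicate 2 for 12. Between hearts of a group, the coefficient of variation of mRNA genes outside the copied stretch was 10.9% (mt-Cytb) to 17.9% (mt-Nd6) in CCl4 hearts and 9.87% (mt-Nd1) to 14.9% (mt-Nd6) in Control hearts.

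Both rRNA genes had a log2 fold change below 0, also with TPM, quantile and median-of-ratios scaling and with mitochondrial reads left out of the scaling. mt-Rnr1, the small subunit rRNA, had 587 RPKM at the lowest, 793 at the median and 1022 at the highest in CCl4 hearts, against 824, 1014 and 1086 RPKM in Control hearts. The ranges overlapped, with 5 CCl4 hearts below the Control median, and the log2 fold change was −0.28 ± 0.13 (SE; adjusted p 0.492, limma). mt-Rnr2, the large subunit rRNA, had 558, 733 and 1150 RPKM at the lowest, median and highest in CCl4 hearts, against 845, 913 and 1053 RPKM in Control hearts. CCl4 replicate 1 was above every Control heart here, and the log2 fold change was −0.28 ± 0.15 (SE; adjusted p 0.554, limma). The ratio of mt-Rnr2 to mt-Rnr1 averaged 0.95 ± 0.0982 in CCl4 hearts and 0.945 ± 0.0805 in Control hearts (SD, n = 6 each).

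Within the mitochondrial reads of a heart, the rRNA share separated the groups. It was 0.402% at the lowest, 0.543% at the median and 0.658% at the highest in CCl4 hearts, against 0.665%, 0.718% and 0.745% in Control hearts. The highest CCl4 heart lay just below the lowest Control heart. The RPKM ratio of mt-Rnr1 to mt-Co1 was 0.0245 to 0.0391 in CCl4 hearts and 0.0415 to 0.0538 in Control hearts, which did not overlap. With Gm29216 added to mt-Co1 it was 0.0191 to 0.0293 in CCl4 hearts and 0.0301 to 0.0384 in Control hearts. These shares and ratios were formed with the fold changes of the genes known and carry no test. As the kit is one for mRNA, per the labels, the rRNA and tRNA values are those of molecules that such a kit retained, and do not measure the organelle's whole rRNA and tRNA pool.

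**Figure D5:**
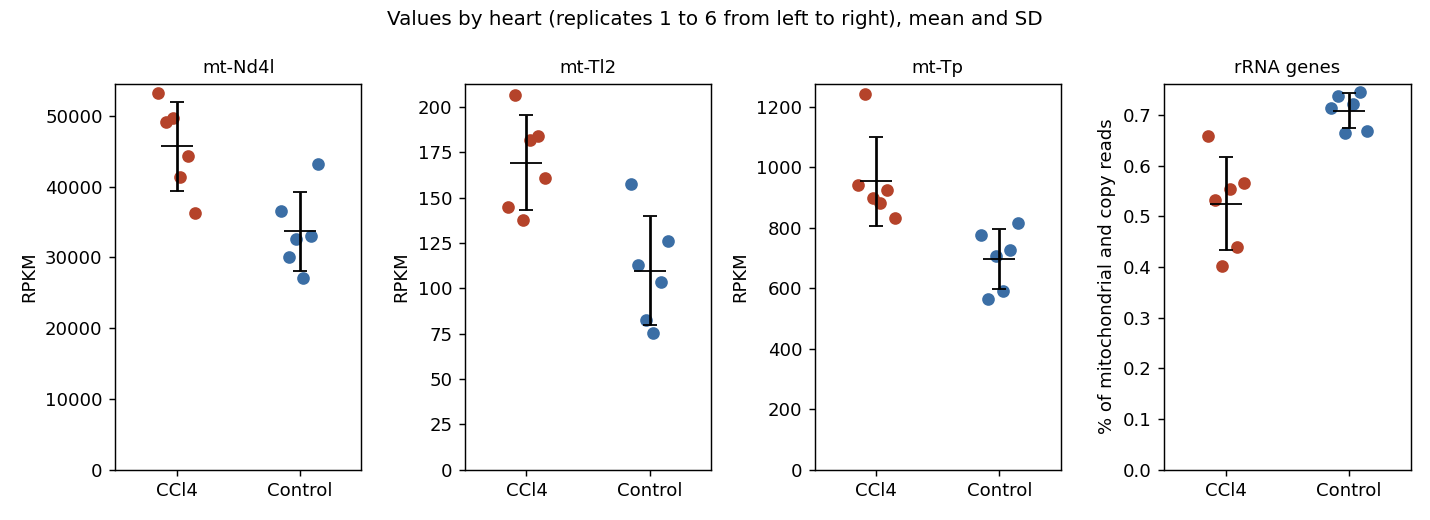
Values by heart for mt-Nd4l, mt-Tl2 and mt-Tp (y, RPKM) and for the rRNA genes (y, percent of the reads of mitochondrial genes and copies), CCl4 left and Control right in each panel, with group mean and SD. The rRNA share was 0.402% to 0.658% in CCl4 hearts and 0.665% to 0.745% in Control hearts, and mt-Tp also had no overlap, as for 0.0355% of all genes in its direction.

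The tRNA genes had no common direction. Of the 20 tested, 15 had a log2 fold change above 0 and 5 below, with a median of 0.15. At an unadjusted p under 0.05, 5 were higher and 1 was lower, beside 1.6% and 8.58% of all genes. mt-Tl2 (sequence above) had 138 RPKM at the lowest, 171 at the median and 206 at the highest in CCl4 hearts, against 75.5, 108 and 157 RPKM in Control hearts. Control replicate 1 reached into the CCl4 range. The log2 fold change was 0.65 ± 0.17 (SE; adjusted p 0.229, limma; exact permutation p 0.00649, two-sided). mt-Tp had 831, 911 and 1242 RPKM at the lowest, median and highest in CCl4 hearts, against 565, 716 and 816 RPKM in Control hearts. The groups did not overlap, as for 0.0355% of all genes in this direction, and the log2 fold change was 0.45 ± 0.12 (SE; adjusted p 0.246, limma; exact permutation p 0.00216, two-sided, the smallest possible). The other 3 that were higher at an unadjusted p under 0.05 were mt-Tr (0.51), mt-Tg (0.46) and mt-Tv (0.45), for arginine, glycine and valine, named after their values were seen. mt-Tr and mt-Tg lie in the copied stretch.

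mt-Tf for phenylalanine, the gene at the start of the reference sequence, had the lowest log2 fold change of all members. Its RPKM was 1.47 at the lowest, 3.07 at the median and 4.62 at the highest in CCl4 hearts, against 2.79, 5.86 and 8.14 RPKM in Control hearts. All 6 CCl4 hearts lay below the Control median, with overlap from Control replicate 6. The log2 fold change was −0.74 ± 0.24 (SE; adjusted p 0.316, limma; exact permutation p 0.0216, two-sided). mt-Te, next to mt-Nd6, had 13575, 17994 and 33461 RPKM at the lowest, median and highest in CCl4 hearts, against 19447, 21638 and 29597 RPKM in Control hearts. Its log2 fold change was −0.26 ± 0.19 (SE; adjusted p 0.671, limma). CCl4 replicate 1 was the highest of all 12 hearts, and 4 CCl4 hearts were below the lowest Control heart. Against mt-Nd6, the RPKM ratio of mt-Te was 0.505 to 0.899 in CCl4 hearts and 0.782 to 0.985 in Control hearts, with 5 CCl4 hearts below all Control hearts.

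Among the tRNA genes with the highest level, mt-Ty had 16273 RPKM at the lowest, 20118 at the median and 24496 at the highest in CCl4 hearts, against 15367, 16851 and 19678 RPKM in Control hearts. It overlapped, with a log2 fold change of 0.21 ± 0.10 (SE; adjusted p 0.507, limma). Its neighbours on the minus strand were mt-Tc, mt-Tn and mt-Ta, for cysteine, asparagine and alanine, with log2 fold changes of 0.09, 0.09 and 0.07, of which mt-Ta was below 0 with TPM and quantile scaling and mt-Tn with quantile scaling. mt-Tm for methionine had 0.33 ± 0.15 (SE; adjusted p 0.496, limma), at 7722 ± 1131 RPKM in CCl4 hearts and 6244 ± 1361 RPKM in Control hearts (SD, n = 6 each). tRNA genes are short, so fragments counted for them can reach into their neighbours, and the strand setting of the counting was not given in the sources used here. Reads of genes on opposite strands, as at mt-Te and mt-Cytb or mt-Nd6 and mt-Nd5, may therefore not be separate.

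Nuclear genes that express the mitochondrial genome were examined in 5 lists: transcription, DNA maintenance, RNA processing and decay, rRNA and tRNA modification, and aminoacyl-tRNA synthetases. Of 93 listed genes, 84 were tested, and none passed an adjusted p under 0.05. The log2 fold change was above 0 for 13 and below 0 for 71, beside 65.7% of all genes below 0, with a median of −0.11. At an unadjusted p under 0.05, 0 were higher and 10 lower, beside 1.6% and 8.58% of all genes. With mitochondrial reads left out of the scaling, the split was 5 higher and 3 lower of 90 tested, with a median of −0.03, beside 5.01% and 3.77% of all genes. Under median-of-ratios scaling it was 3 higher and 5 lower, beside 5.49% and 5.6% of all genes, and under quantile scaling also 3 higher and 5 lower, beside 5.44% and 5.84%. Leaving out Control replicate 2 or Control replicate 4 gave 6 lower each, beside 6.47% and 5.84% of all genes.

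Of 11 transcription genes, 1 was above 0 and 10 below, but 4 above and 7 below with mitochondrial reads left out of the scaling. Polrmt, the mitochondrial RNA polymerase, had 1.37 RPKM at the lowest and 1.83 at the highest in CCl4 hearts, against 1.91 and 2.54 RPKM in Control hearts. The groups did not overlap, as for 0.724% of all genes in this direction, and the log2 fold change was −0.30 ± 0.08 (SE; adjusted p 0.214, limma). Mterf4, a factor of mitochondrial ribosome assembly, had 10.03 to 10.84 RPKM in CCl4 hearts and 11.9 to 14.7 RPKM in Control hearts, again without overlap, with −0.33 ± 0.08 (SE; adjusted p 0.179, limma). Tfam, which packages the genome and serves its promoters, averaged 4.48 ± 0.47 RPKM in CCl4 hearts and 4.75 ± 0.586 RPKM in Control hearts (SD, n = 6 each), a log2 fold change of −0.07 (0.0153 with mitochondrial reads left out of the scaling). Tefm, the elongation factor, and Mterf3 had −0.20 and −0.13, with adjusted p of 0.56 and 0.563 (limma).

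Among 22 RNA processing and decay genes, 4 were above 0 and 18 below, but 9 above and 14 below of 23 with mitochondrial reads left out of the scaling. Mtpap, the poly(A) polymerase of the organelle, had 2.59 to 3.16 RPKM in CCl4 hearts and 3.26 to 3.95 RPKM in Control hearts. The groups did not overlap, as for 0.724% of all genes in this direction, and the log2 fold change was −0.22 ± 0.07 (SE; adjusted p 0.32, limma). Supv3l1 and Pnpt1, the helicase and the exonuclease of the RNA degrading complex, had −0.23 and −0.17, and Ptcd3, a protein of the small ribosomal subunit, had −0.22, with adjusted p-values of 0.376, 0.49 and 0.45 (limma). Lrpprc, which stabilises mRNAs, averaged 6.07 ± 1.16 RPKM in CCl4 hearts and 7.03 ± 1.33 RPKM in Control hearts (SD, n = 6 each), a log2 fold change of −0.18. Of 20 rRNA and tRNA modification genes 4 were above 0 and 16 below, but 9 above and 11 below with median-of-ratios or quantile scaling and 10 each with mitochondrial reads left out of the scaling. The smallest p was that of Trmt5, a tRNA methyltransferase, at −0.35 ± 0.10 (SE; adjusted p 0.264, limma), with the rRNA methyltransferase Mrm1 at −0.19, the methyltransferase Trmt61b at −0.15 and the tRNA-modifying GTPase Gtpbp3 at −0.16. All 18 synthetase genes tested were below 0, but 15 of 18 under median-of-ratios, 16 of 18 under quantile normalization and 16 of 21 with mitochondrial reads left out of the scaling. The threonine and alanine enzymes Tars2 and Aars2 had −0.16 each, the valine enzyme Vars2 −0.13 and the glutamate enzyme Ears2 −0.15. Of 13 DNA maintenance genes 4 were above 0 and 9 below, but 6 above and 7 below under median-of-ratios, 5 above and 8 below with quantile scaling, and 10 above and 5 below of 15 with mitochondrial reads left out. There the topoisomerase Top1mt had −0.21, the exonuclease Mgme1 −0.18, the helicase Twnk −0.16 and Ssbp1, which binds single-stranded DNA, −0.12.

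The nuclear subunits that pair with the mitochondrial ones were set beside them. All 72 tested nuclear subunit genes of complexes I, III, IV and V had a log2 fold change below 0, but 69 under median-of-ratios, 67 under quantile normalization and 66 with mitochondrial reads left out of the scaling. The median was −0.20, with 14 of 72 lower at an unadjusted p under 0.05, beside 8.58% of all genes, and none at an adjusted p under 0.05. Leaving out 1 library gave 4 (without Control replicate 2 or 4), 5 (without CCl4 replicate 3), 6 (without Control replicate 5), 7 (without CCl4 replicate 6), 8 (without CCl4 replicate 5), 9 (without CCl4 replicate 4), 24 (without CCl4 replicate 1) or 34 (without Control replicate 1), and 10 to 20 otherwise. Of all genes, 5.84% (without Control replicate 4) to 14.3% (without CCl4 replicate 3) were lower in these fits, and 10.7% without Control replicate 1. Without CCl4 replicate 3 the median of the subunit genes was −0.12. The 14 became 33 with TPM scaling, beside 10.4% of all genes, and 4 with quantile scaling, beside 5.84%. They became 0 with median-of-ratios scaling, beside 5.6%, and with mitochondrial reads left out, beside 3.77%. Cox6a2, a muscle form of a cytochrome c oxidase subunit, averaged 792 ± 161 RPKM in CCl4 hearts and 1059 ± 168 RPKM in Control hearts (SD, n = 6 each), with −0.43 ± 0.15 (SE; adjusted p 0.35, limma). Cox7c, of the same complex, had −0.31, the complex I genes Ndufb4 and Ndufa13 −0.25 and −0.33, the complex III genes Uqcrq and Uqcr11 −0.31 and −0.26, and the ATP synthase genes Atp5o and Atp5e −0.29 and −0.25. Within each heart, the mean log2(RPKM + 1) of 12 mitochondrial mRNA genes, with copies summed and mt-Atp8 left out, exceeded that of the nuclear subunits by 7.64 to 8.23 in CCl4 hearts and by 7.19 to 7.87 in Control hearts. The groups overlapped, with 3 CCl4 hearts above all Control hearts. CCl4 replicate 3, with the largest excess, also had the lowest nuclear mean of all hearts, 6.43, and the lowest summed ventricular markers. The part of that in the difference was not tested.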

How the data were processed

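The authors deposited RPKM values for 31722 symbols in 12 columns, 1 per heart, matched by title. Per the labels' protocols, TRIzol RNA went into a stranded mRNA library kit. The submitters' processing notes name Trimmomatic 0.36, featureCounts, Subread 1.5.1 and GRCm38; aligner, annotation release and strand setting are not given in the sources used here.

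RPKM was multiplied by the exon length of GENCODE release M21 (30201 symbols matched, 95.2%) to give shares of reads. Shares of a library use the total that the RPKM scaling implies, which the matched symbols exceeded in every library. Low values lay on steps (92.6% to 93.8% within 0.05 of a whole step), mostly even ones, so totals are relative depths and no count test was used as the main result. limma 3.58.1 in R 4.3.3 fitted log2(RPKM + 1) with a trend over genes with at least 0.5 RPKM in at least 6 libraries, with no covariate. Fold changes on this scale understate those of low genes. Exact permutation tests used all splits of the 12 hearts into 6 and 6. Copies were compared with BLAST+ 2.17.0 and base by base. Members, gene lists, ratios and tests were chosen with earlier results of these data known. Alternatives covered pseudocount, filter, scaling, weights, a replicate block, voom on recovered steps and each library left out. Named are all mRNA and rRNA genes and copies, the 6 highest tRNA genes, the 2 tRNA genes of smallest p in each direction, the 4 genes of smallest p per nuclear list (2 per respiratory complex), and Tfam, Polrmt and Lrpprc. Prorp, Mrm3 and 1 ATP synthase gene were not found under the listed symbols. Tables and plots used pandas 2.3.3 and matplotlib 3.10.9 under Python 3.11.15, with numpy 2.4.6.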

Additional observations from a re-analysis of the deposited data

Results flagged for a closer look

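Over 86 groups of 6 hearts (the 41 members tested and 2 of the read shares, each in CCl4 and in Control hearts), 2 held a heart that stood apart from the other 5 by more than Dixon's 95% critical value allows. Chance flags about 1 in 20 groups. mt-Tp in CCl4 replicate 2 was 1242 RPKM, while the other 5 CCl4 hearts had 831 to 939 RPKM. mt-Nd6 in Control replicate 6 was 35476 RPKM, while the other 5 Control hearts had 24658 to 27881 RPKM.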

How the results depend on the processing

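No member passed an adjusted p under 0.05, and this was the same under every setting except these. With array weights, which rate each library by its spread, 770 genes were higher and 1479 lower in CCl4 hearts, of 14087 tested. Of the 41 members tested, 12 were higher and 2 lower. Of the 84 nuclear expression genes tested, 2 were higher and 13 lower. With both libraries numbered 1 left out, chosen after seeing the data, 96 genes were higher and 211 lower, of 13809 tested. Of the 41 members tested, 1 was higher, mt-Tl2 at 0.81 (adjusted p 0.0226, limma). Leaving out 1 library at a time gave 0 to 7 genes higher and 0 to 39 lower, most without CCl4 replicate 1, and 0 members. Members higher at an unadjusted p under 0.05 then numbered 10 to 19 against 12, the 19 without Control replicate 6, and members lower numbered 1 to 4 against 1, the 4 without CCl4 replicate 1. Of all genes, 0.87% to 3.88% were higher and 5.84% to 14.3% lower in these fits. Members lower numbered 2 with a pseudocount of 0.1 or 0.5, quantile normalization, voom or the replicate block, 4 with TPM scaling or without both libraries numbered 1, and 5 with array weights. Of all genes, 5.84% (quantile normalization) to 20.2% (array weights) were lower in these settings.

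The replicate numbers are not stated to pair the samples. Correlations of same-numbered hearts ran from −0.474 to 0.232, which cannot settle whether they do. With the number as a block, 9 members were higher and 2 lower at an unadjusted p under 0.05, and 4 nuclear expression genes were lower, against 10. Of all genes, 1.37% were higher and 6.15% lower with this block. Of the mRNA genes 3 were then higher, against 6, and of the nuclear respiratory subunit genes 5 lower, against 14.

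The log2 fold changes of 41 members were recomputed 1025 times: 963 kept direction and side of the threshold, 15 passed it and 47 changed sign, over 12 genes whose values were near 0. With TPM scaling these were mt-Nd1 (−0.0495), mt-Co3 (−0.0175), mt-Tw (−0.0374), mt-Ta (−0.00958), Gm28438 (−0.048), Gm28437 (−0.0426), Gm10925 (−0.0072) and Gm29216 (−0.0432). With quantile normalization they were mt-Nd1 (−0.13), mt-Ta (−0.0251), mt-Tn (−0.0971), mt-Ts1 (0.0373), Gm28437 (−0.0226) and Gm29216 (−0.0205). With array weights they were mt-Nd1 (−0.00941), mt-Ts1 (0.0517) and Gm28438 (−0.00563), and mt-Ts1 was 0.0333 with median-of-ratios scaling and 0.0667 with mitochondrial reads left out of the scaling. Without both libraries numbered 1 they were mt-Nd1 (−0.0571), mt-Ts1 (0.0528), mt-Th (−0.000234) and Gm28438 (−0.0216). Leaving out 1 library gave mt-Nd1 −0.0439 to 0.0903, mt-Co3 −0.0345 to 0.13, mt-Tw −0.0635 to 0.15, mt-Ta −0.0321 to 0.16, mt-Tn −0.0161 to 0.18, mt-Tc −0.00547 to 0.18, mt-Ts1 −0.19 to 0.0757, mt-Th −0.0216 to 0.19, Gm28438 −0.0384 to 0.0805, Gm28437 −0.00337 to 0.0635 and Gm29216 −0.0495 to 0.0972. Tfam was 0.0153 with mitochondrial reads left out of the scaling. The difference in the mitochondrial share stayed between 1.56 and 5.47 percentage points under every setting run. The cause of these shifts was not tested. Rows of a few RPKM, as for mt-Co2 and mt-Tf, are limited by depth.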
